A study of Mus musculus with 9 samples.

Results

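Bipolar cells are the interneurons that carry photoreceptor signals to amacrine and ganglion cells. They are born as rod bipolar cells, as ON cone bipolar cells or as OFF cone bipolar cells, and transcription factors of the homeodomain, zinc finger and basic helix-loop-helix classes keep those identities in the adult retina. A set of 9 genes that mark or specify bipolar cells is described here: Vsx1, Isl1, Lhx4, Sebox, Irx6, Prdm8, Bhlhe23, Cabp5 and Car8. They were chosen by name, each symbol matched 1 Ensembl identifier, and they make up 9 of the 35397 genes in the deposited table.

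RNA came from retinas of wild-type mice (5 libraries, wild type 1 to 5) and of db/db mice (4 libraries, db/db 1, 3, 4 and 5). The db/db genotype removes the signalling form of the leptin receptor and gives obese, diabetic animals. Strain background, age, sex, litter and the number of retinas per library were not given in the sources used here, and p-values thus measure only the spread between these libraries, which may be technical. Values are FPKM, fragments scaled by gene length and by library depth. The depth recovered from the steps in the values was 36.6 to 47.8 M reads per library, and it gave each factor between 640 reads (Bhlhe23 in db/db 4) and 4913 reads (Cabp5 in db/db 1). Library db/db 1 stood apart, with values that summed to 311180 FPKM against 252830 to 268140 in the other libraries, so results are given with and without it. The neural retina was represented as labelled, since the rod, cone, amacrine, ganglion cell and Muller glia marker lists were all expressed. Of 6 horizontal cell markers 4 averaged 1 FPKM or more, and the lowest was Onecut1, down to 0.042 FPKM. Lens transcripts varied from a summed 1.52 FPKM to 233.5 FPKM between libraries. Pigment epithelium markers summed to 351.6 FPKM in db/db 1 against 66.2 to 156.6 FPKM in the other libraries, and the part of either tissue in the values below was not tested.

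Upstream sequence of 4 of the factors is shown first, since Isl1 and Cabp5 hold the TAATCC core that OTX2 and CRX, the homeodomain factors of photoreceptors and bipolar cells, bind, while Bhlhe23 and Prdm8 are the factors whose 2 groups did not overlap. RefSeq (GRCm38.p6) start-site windows of 250 bases before to 50 after the start were found for 7 of the 9 factors, all but Car8 and Irx6. The stretches are read 5′ to 3′ on the gene's strand, begin 200 bases before the RefSeq start and hold no exon annotated in GENCODE M21, and capitals mark TAATCC. The start used for Prdm8 is an internal one, and its stretch lies in the first intron of a GENCODE transcript that begins farther upstream. They lie at chr13:116309690-116309888 (minus strand, Isl1), chr7:13397955-13398131 (plus strand, Cabp5), chr2:180776901-180777100 (minus strand, Bhlhe23) and chr5:98180669-98180868 (plus strand, Prdm8).
Isl1: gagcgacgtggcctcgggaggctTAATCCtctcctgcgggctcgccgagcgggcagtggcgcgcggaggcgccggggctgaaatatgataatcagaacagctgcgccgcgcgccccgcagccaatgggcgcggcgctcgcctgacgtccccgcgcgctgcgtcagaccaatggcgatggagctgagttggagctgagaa
Cabp5: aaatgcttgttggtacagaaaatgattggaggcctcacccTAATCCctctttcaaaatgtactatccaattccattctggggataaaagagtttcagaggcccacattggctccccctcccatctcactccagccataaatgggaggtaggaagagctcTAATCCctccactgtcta
Bhlhe23: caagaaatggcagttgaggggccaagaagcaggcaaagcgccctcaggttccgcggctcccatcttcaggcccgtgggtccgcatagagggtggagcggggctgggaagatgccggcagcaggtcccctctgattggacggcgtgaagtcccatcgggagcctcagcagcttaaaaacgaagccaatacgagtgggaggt
Prdm8: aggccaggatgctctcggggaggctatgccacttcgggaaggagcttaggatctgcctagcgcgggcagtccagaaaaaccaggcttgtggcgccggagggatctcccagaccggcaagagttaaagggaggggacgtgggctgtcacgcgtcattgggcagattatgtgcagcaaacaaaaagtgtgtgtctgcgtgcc

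On either strand TAATCC occurred in 2 of the 7 windows and in 7.06% of all 32851 windows. In Isl1 it began 177 bases before the start. Cabp5 carried it at 2 places, 160 and 41 bases before the start, and 0.359% of all windows held 2 or more copies. The homeodomain core TAATTA was in 0 of the 7 windows and in 5.29% of all. Among E-boxes, the sites of basic helix-loop-helix factors, CAGATG was in 1 of 7 windows (Prdm8, 22 bases after the start; 17.2% of all windows) and CATATG in 0 (3.91% of all). These are matches of letters in short windows and were not tested for binding.

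In wild-type retina the factors spanned a range from 39.3 to 5.70 FPKM, and are ordered here on that scale. The length that recovered whole reads is that of all annotated exons of a gene merged. It was 3959 bases in Isl1 and 2526 in Cabp5, against longest transcripts of 2516 and 1777 bases. In Sebox it was 1359 against 1351 bases. The order thus depends on the gene model, and an order by transcript length was not tested. Cabp5 was highest at 39.3 ± 1.23 FPKM (SD, n = 5), followed by Sebox at 31.1 ± 1.17 FPKM and Isl1 at 18.8 ± 3.11 FPKM. The next factors were Car8 at 11.8 ± 0.812 FPKM, Prdm8 at 11.1 ± 0.271 FPKM and Lhx4 at 10.5 ± 0.541 FPKM, and the lowest were Vsx1 at 8.54 ± 1.05 FPKM, Bhlhe23 at 7.79 ± 0.397 FPKM and Irx6 at 5.70 ± 0.502 FPKM. Each of the neighbours Car8 and Prdm8, Prdm8 and Lhx4, Lhx4 and Vsx1, and Vsx1 and Bhlhe23 overlapped in range, so their order is not resolved over all 5 libraries, although Car8 was above Prdm8 and Lhx4 above Vsx1 within each of them. Among the 14588 genes that averaged 1 FPKM or more over the libraries, Cabp5 ranked 930 and Irx6 7900. In db/db the order of the means was the same apart from Prdm8. It stood at 12.4 ± 0.777 FPKM (SD, n = 4), above Car8 at 10.6 ± 1.14 FPKM, with no overlap between them. There Cabp5 and Sebox, Car8 and Lhx4, Vsx1 and Bhlhe23, and Bhlhe23 and Irx6 overlapped in range, so their order is not resolved. Cabp5 was above Sebox and Bhlhe23 above Irx6 within each of the 4 libraries.

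**Figure D1:**
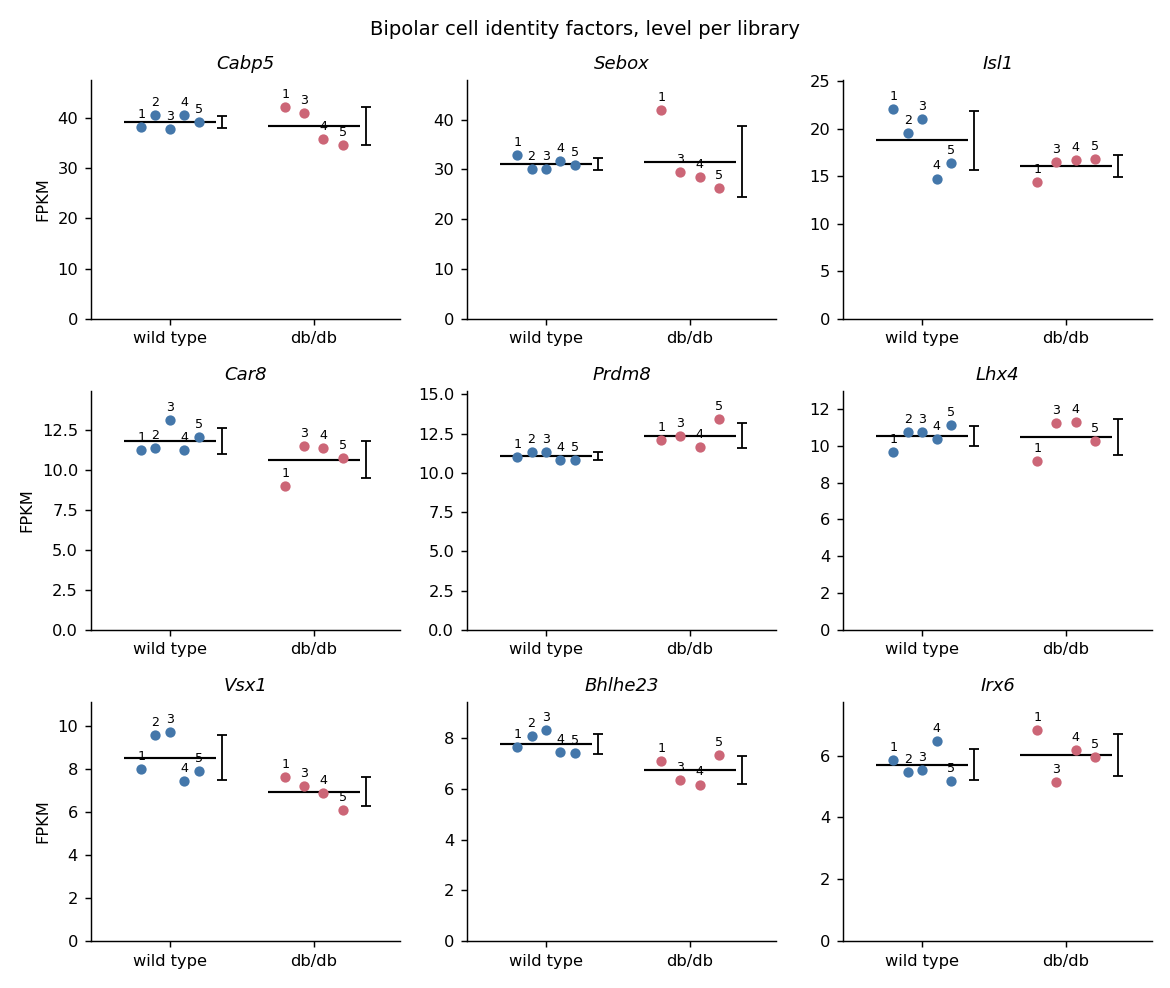
FPKM (vertical axes, from 0) of the 9 factors in each wild-type (blue, n = 5) and db/db (red, n = 4) library, numbered as in the labels; horizontal lines are group means and bars the SD. Prdm8 is higher and Bhlhe23 lower in all 4 db/db libraries than in any wild-type library, and Sebox stands at 42.0 FPKM in db/db 1.

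Whether these identity genes differ in the diabetic retina was asked next. None of the 9 factors rose or fell at an adjusted p under 0.05 (limma, Benjamini-Hochberg over all 14588 genes), where 0.500% of all tested genes did, 0.233% higher and 0.267% lower (46.6% of the calls were higher, and 58.3% under scaling to equal sums). At an unadjusted p under 0.05 were 3 of the 9, with Vsx1 and Bhlhe23 on the lower side and Prdm8 on the higher, against 19.3% of all tested genes (9.91% lower and 9.36% higher). The 2 groups did not overlap for Bhlhe23 and Prdm8, 2 of the 9, against 11.6% of all genes (5.20% higher and 6.38% lower). The log2 changes ran from -0.26 in Vsx1 to 0.15 in Prdm8, with a median of -0.035 against 0.0035 over all tested genes. In whole retina, fewer cells of a type and less RNA per cell cannot be told apart. With all libraries but db/db 1 again none of the 9 passed, against 10.6% of all genes. The median log2 change of the 9 was then -0.080, against -0.017 over all tested genes. In that fit 4 of the 9 had an unadjusted p under 0.05, against 30.1% of all genes (13.3% higher and 16.8% lower). The same 4 had groups that did not overlap, against 21.1% of all genes (9.63% higher and 11.5% lower): Vsx1, Sebox and Bhlhe23 were lower and Prdm8 was higher.

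**Figure D2:**
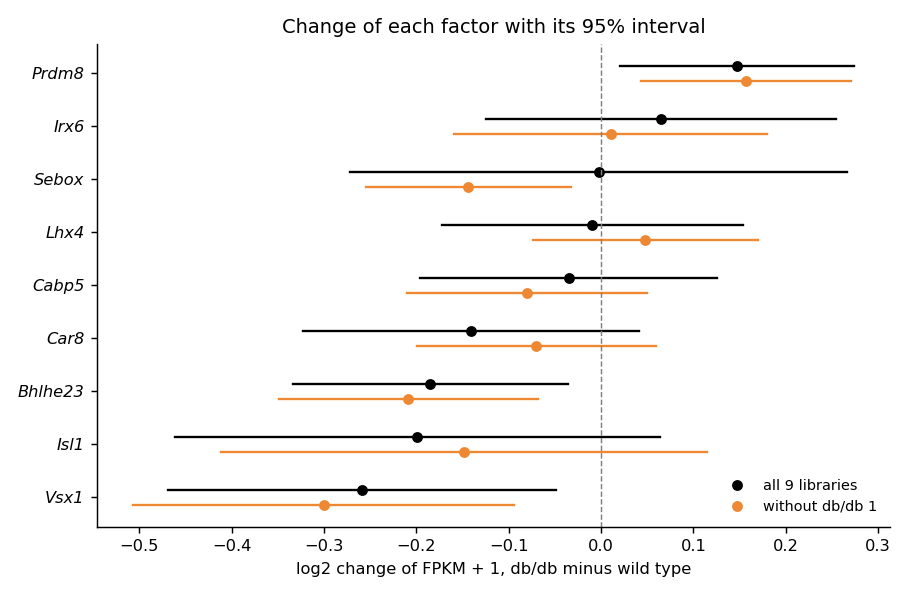
Log2 change of FPKM + 1 (horizontal axis, db/db minus wild type) of each factor with its 95% interval from limma, for all 9 libraries (black) and without db/db 1 (orange). The intervals of Vsx1, Bhlhe23 and Prdm8 lie on 1 side of 0 in both fits, before adjustment over all genes, and that of Sebox, centred at -0.0023 with all libraries, moves to -0.14 without db/db 1.

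Among the homeodomain factors, Vsx1, a paired-like factor of cone bipolar cells (ENSMUSG00000033080, chr2:150680702-150689360, mm10), had the largest difference. It stood at 8.01, 9.57, 9.75, 7.44 and 7.92 FPKM in wild type 1 to 5. In db/db 1, 3, 4 and 5 it stood at 7.64, 7.20, 6.90 and 6.08 FPKM. All 4 db/db values were below the wild-type median, and only db/db 1 lay above the lowest wild-type library. The mean was 6.95 ± 0.660 FPKM (SD, n = 4) in db/db, 0.814 of that in wild type, a log2 difference of -0.26 (SE 0.094, limma adjusted p = 0.183, exact two-sided permutation p = 0.0317). Without db/db 1 the groups no longer overlapped and the log2 change was -0.30 (limma adjusted p = 0.0651). Its spread in wild type was wide, with a coefficient of variation of 12.3% against a median of 6.65% over tested genes.

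Isl1, a LIM-homeodomain factor used by ON bipolar cells and also by ganglion and starburst amacrine cells (ENSMUSG00000042258, chr13:116298281-116309689), was the factor that varied most among the wild-type libraries, with a coefficient of variation of 16.6%, which exceeded that of 87.3% of tested genes. Its levels there were 22.1, 19.6, 21.1, 14.7 and 16.3 FPKM. The db/db libraries held 14.3, 16.4, 16.7 and 16.8 FPKM. Wild type 1, 2 and 3 lay above every db/db library, and wild type 4 and 5 lay between db/db 1 and the other 3. The log2 difference of -0.20 (SE 0.12, limma adjusted p = 0.376, exact permutation p = 0.167) was thus not larger than the spread between libraries. Of 8 ganglion cell genes and 6 starburst amacrine genes, which mark the other cells that use Isl1, none passed. Over all tested genes 0.500% did, so this count cannot show that those cells were unchanged. Over the libraries the ganglion cell levels summed to between 273.7 and 311.5 FPKM in wild type and between 300.7 and 424.9 FPKM in db/db, highest in db/db 1. Starburst levels summed to between 23.5 and 25.9 FPKM and between 24.9 and 27.6 FPKM. No marker of either list was listed at 0 in any library (lowest Pou4f2, 1.94 FPKM, and Megf11, 2.28 FPKM), and their part in the Isl1 values was not tested.

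Lhx4, a LIM-homeodomain factor of cone bipolar cells and cones (ENSMUSG00000026468, chr1:155698031-155751684), did not differ beyond its spread. The wild-type libraries held 9.68, 10.7, 10.7, 10.4 and 11.1 FPKM, and the db/db libraries 9.16, 11.2, 11.3 and 10.2 FPKM. The db/db values lay on both sides of the wild-type range, with db/db 1 lowest of all 9. The 95% interval of the fold, on the scale of FPKM + 1, was 0.887 to 1.11 (limma adjusted p = 0.949).

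Sebox, a homeobox gene found in rod bipolar cells (ENSMUSG00000001103, chr11:78503447-78505081), turned on 1 library. Wild type 1 to 5 held 32.8, 30.04, 30.1, 31.7 and 30.9 FPKM, a coefficient of variation of 3.77%. In db/db 1 it stood at 42.0 FPKM, while db/db 3, 4 and 5 held 29.5, 28.4 and 26.3 FPKM. One db/db library was thus above all wild-type libraries and the other 3 were below all of them. With all 9 libraries its log2 difference was -0.0023 (SE 0.12), at a limma adjusted p of 0.992 and an exact permutation p of 1. Without db/db 1 it was -0.14 (SE 0.049, limma adjusted p = 0.0892).

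Irx6, an Iroquois homeobox factor of OFF cone bipolar cells (ENSMUSG00000031738, chr8:92674288-92680956), was the lowest of the set. It stood at 5.85, 5.46, 5.54, 6.48 and 5.17 FPKM in the wild-type libraries, and at 6.82, 5.14, 6.16 and 5.94 FPKM in db/db. The db/db values lay on both sides of the wild-type range, with a log2 difference of 0.064 (SE 0.085, limma adjusted p = 0.692) and an interval of 0.917 to 1.19 for the fold on the scale of FPKM + 1. The antisense gene Gm45505 shares 152 exon bases with Irx6 and averaged 0.112 FPKM in the wild-type and 0.115 FPKM in the db/db libraries.

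Prdm8, a PR-domain zinc finger factor needed by rod bipolar and some OFF cone bipolar cells (ENSMUSG00000035456, chr5:98167198-98188991), was the factor with the narrowest wild-type spread, a coefficient of variation of 2.45% beside 2.03% for counting error alone. Wild type 1 to 5 held 11.02, 11.4, 11.4, 10.8 and 10.8 FPKM. The db/db libraries held 12.1, 12.3, 11.6 and 13.5 FPKM. All 4 db/db values were above all 5 wild-type values. The log2 difference was 0.15 (SE 0.057, limma adjusted p = 0.205). The exact two-sided permutation p of 0.00794 is the smallest that the regroupings of 9 libraries can give. Groups that do not overlap can also give a larger value (0.0159 for Neurod1 in the same test). This p rests on the same order of libraries and is not separate evidence from the lack of overlap. Without db/db 1 the log2 change was 0.16 (limma adjusted p = 0.0758). The antisense gene A730035I17Rik shares 1411 exon bases with Prdm8 and the strand of counting was not given in the sources used here, so reads of the pair cannot be told apart. The antisense gene averaged 1.496 ± 0.132 FPKM (SD, n = 5) in the wild-type libraries. In db/db it averaged 1.37 ± 0.183 FPKM (SD, n = 4), a log2 difference of -0.074 in the other direction (limma adjusted p = 0.613).

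Bhlhe23, the basic helix-loop-helix factor that rod bipolar cells need to mature (ENSMUSG00000045493, chr2:180774381-180776900, a gene of 1 exon), lay on the lower side. It stood at 7.65, 8.09, 8.31, 7.46 and 7.42 FPKM in the wild-type libraries, and at 7.11, 6.35, 6.17 and 7.32 FPKM in db/db. All 4 db/db libraries were below all 5 wild-type libraries, though db/db 5 and wild type 5 were only just apart. The db/db mean of 6.74 ± 0.562 FPKM (SD, n = 4) was 0.865 of the wild-type mean, a log2 difference of -0.19 (SE 0.066, limma adjusted p = 0.180, exact permutation p = 0.00794). Bhlhe23 was the only factor to pass in any of the 23 alternatives run, namely after correction for GC content without db/db 1 (log2 change -0.29, limma adjusted p = 0.0318). In that setting 343 of all 14490 tested genes were lower and 378 were higher. Gm14343, a transcript on the same strand that shares 144 exon bases, averaged 3.15 ± 0.454 FPKM (SD, n = 5) in wild type against 2.90 ± 0.0817 FPKM (SD, n = 4). Its log2 difference was -0.084 (limma adjusted p = 0.593).

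The remaining members are cytoplasmic markers. Cabp5, a calmodulin-like calcium-binding protein of rod bipolar and some cone bipolar cells (ENSMUSG00000005649, chr7:13398132-13408887), held 38.3, 40.54, 37.9, 40.54 and 39.2 FPKM in wild type. In db/db it held 42.2, 41.1, 35.9 and 34.7 FPKM. The db/db libraries split, with db/db 1 and 3 above and db/db 4 and 5 below every wild-type library, so that the log2 difference was -0.035 (SE 0.072, limma adjusted p = 0.808).

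Car8, a carbonic anhydrase-related protein without enzyme activity that marks rod bipolar cells (ENSMUSG00000041261, chr4:8143362-8239041), held 11.2, 11.4, 13.1, 11.3 and 12.04 FPKM in wild type. The db/db libraries held 8.998, 11.5, 11.4 and 10.7 FPKM. The groups overlapped, and db/db 1 was the lowest library. The log2 difference was -0.14 (SE 0.081, limma adjusted p = 0.364), and -0.070 without db/db 1 (limma adjusted p = 0.446). The genes used by rod bipolar cells did not all lie on the same side: in db/db 3, 4 and 5 Bhlhe23 and Sebox were below and Prdm8 above all wild-type libraries, while Cabp5 lay on both sides and Car8 overlapped. In db/db 1 Sebox was instead the highest of all 9 libraries. Without db/db 1 the groups did not overlap for 21.1% of all tested genes (9.63% higher and 11.5% lower).

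The deviations of db/db 1 from the wild-type mean differed between the factors in sign. Sebox stood at 0.42 and Irx6 at 0.23 on the log2 scale, while Isl1 and Car8 both stood at -0.35. The GC content of the longest transcript was 52.9% in Sebox, 57.6% in Irx6, 45.7% in Isl1 and 42.3% in Car8, and that of Cabp5, which stood at 0.10, was 45.6%. Bhlhe23, with the second-highest GC content of 55.8%, stood at -0.11, and Prdm8, at 53.1%, stood at 0.12. Vsx1 stood at -0.14 with 50.3% GC and Lhx4 at -0.18 with 50.05% GC. Sebox also had the shortest transcript, at 1351 bases, against 1777 to 5514 bases in the others. After correction for GC content without db/db 1 the log2 changes were -0.19 in Sebox, -0.077 in Irx6, -0.091 in Isl1 and 0.049 in Car8, none past the threshold. The part of GC content or length in the values of db/db 1 was not tested.

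**Figure D3:**
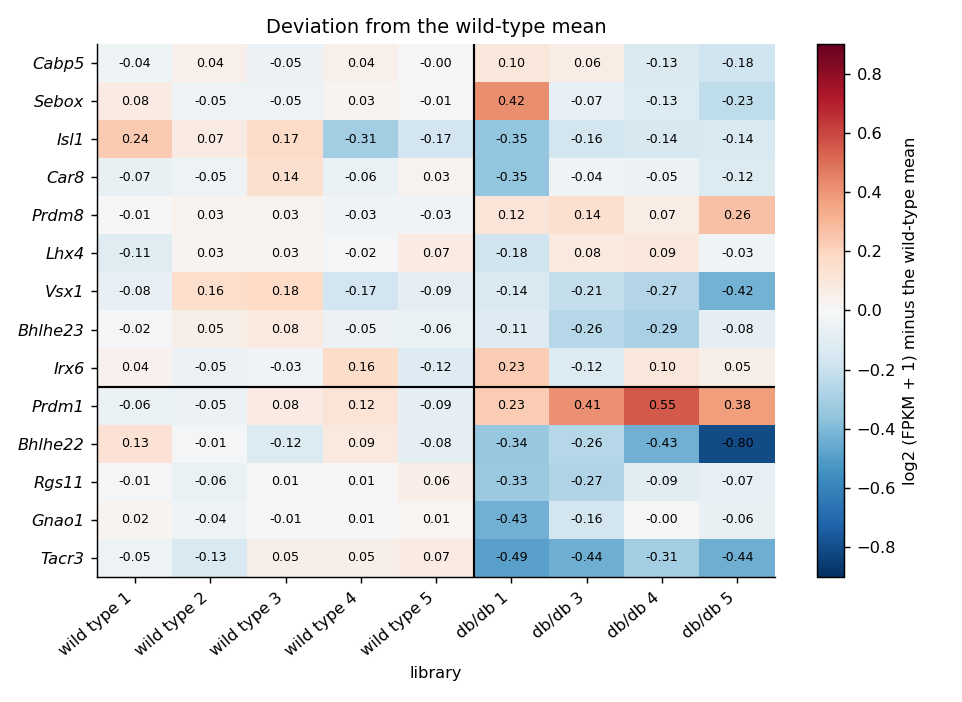
Log2 (FPKM + 1) of each library (columns) minus the wild-type mean of that gene, for the 9 factors (above the line) and 5 other bipolar genes named by rule (below), with the value in each cell. Prdm8 and Prdm1 are positive, and Vsx1, Isl1, Car8, Bhlhe23, Bhlhe22, Rgs11, Gnao1 and Tacr3 negative, in all 4 db/db libraries.

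Other genes of bipolar cells were taken from 3 lists of 52 genes in all, of which 49 reached the filter. In the comparison of all 9 libraries 1 of the 49 fell and none rose, where 0.267% of all tested genes fell and 0.233% rose. Their median log2 difference was -0.068 against 0.0035 over all tested genes, with 17 positive and 32 negative values. Over all tested genes 7390 were positive and 7198 negative. Without db/db 1 the median was -0.041 against -0.017, with 19 positive and 30 negative values (6667 and 7921 over all tested genes). The gene that fell with all 9 libraries was Tacr3, the neurokinin receptor of OFF cone bipolar cells. Tacr3 stood at 6.62, 6.17, 7.16, 7.16 and 7.26 FPKM in the wild-type libraries, and at 4.59, 4.80, 5.35 and 4.79 FPKM in db/db. The db/db levels were all below the lowest wild-type level. The difference was -0.42 on the log2 scale (SE 0.067), at a limma adjusted p of 0.0419, and of 0.0133 to 0.428 over 23 alternatives. The call was lost when any 1 library but db/db 1 was left out, at adjusted p of 0.0645 to 0.144. Tacr3 passed without db/db 1 (-0.40, limma adjusted p = 0.0133).

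Among 16 measured transcription factors of bipolar fate none passed with all libraries, against 0.500% of all tested genes, and their median was -0.031. Groups did not overlap for 1 on the higher and 4 on the lower side, against 5.20% and 6.38% of all tested genes. Prdm1, the zinc finger repressor that favours photoreceptor over bipolar fate, stood at 3.26, 3.27, 3.67, 3.82 and 3.18 FPKM in the wild-type libraries, and at 4.19, 4.89, 5.49 and 4.76 FPKM in db/db. Every db/db library was above every wild-type library, and the group means differed by 0.39 on the log2 scale (SE 0.080, limma adjusted p = 0.0655). Bhlhe22, a basic helix-loop-helix factor of OFF cone bipolar and amacrine cells and the paralog of Bhlhe23, stood at 11.2, 10.1, 9.23, 10.8 and 9.52 FPKM in the wild-type libraries, and at 7.79, 8.33, 7.26 and 5.38 FPKM in db/db. It was lower in each db/db library than in any wild-type library, a log2 difference of -0.46 (SE 0.11, limma adjusted p = 0.0798). Without db/db 1 both passed, Prdm1 at 0.45 (limma adjusted p = 0.0129) and Bhlhe22 at -0.50 (0.0299). In that fit 4.72% of all tested genes rose and 5.84% fell. There the median of the 16 transcription factors was -0.0074, against -0.017 over all tested genes.

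Of 15 genes of the ON bipolar cascade, the mGluR6 to TRPM1 pathway, none passed, against 0.500% of all tested genes. Their median was -0.033, and -0.0014 without db/db 1. With all libraries Rgs11, a regulator of G protein signalling in ON bipolar dendrites, had a log2 change of -0.19 (limma adjusted p = 0.178). Gnao1, the G protein subunit that mGluR6 drives, had -0.17 (limma adjusted p = 0.314). Groups did not overlap for 1 of the 15, Rgs11, on the lower side, against 6.38% of all tested genes. Of 18 measured cone bipolar subtype markers 1 fell (Tacr3), against 0.267% of all tested genes. Their median was -0.12 against 0.0035, and -0.0998 against -0.017 without db/db 1. Without db/db 1 the 49 genes included 1 that rose (Prdm1) and 5 that fell (Tacr3, Bhlhe22, Nfia, Neto1 and Scgn), where 4.72% of all tested genes rose and 5.84% fell. Nfia, Neto1 and Scgn fell outside the naming rule and are given because they passed here. Their log2 changes in that fit were -0.25 in Nfia, a nuclear factor I gene, -0.27 in Neto1, an auxiliary subunit of kainate receptors, and -0.18 in Scgn, the calcium-binding protein secretagogin (limma adjusted p = 0.0460, 0.0312 and 0.0363). Scgn stood at 57.9 FPKM in db/db 1, above all wild-type libraries, and its log2 difference with all libraries was -0.023 (limma adjusted p = 0.932). With GC correction without db/db 1 none of the 3 passed, at -0.13 in Nfia, -0.076 in Neto1 and -0.16 in Scgn (limma adjusted p = 0.1998, 0.432 and 0.0618). Rgs11 did pass there (-0.22, limma adjusted p = 0.0378), as did Tacr3, Bhlhe22 and Prdm1. In that setting 343 of all 14490 tested genes were lower and 378 higher.

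**Figure D4:**
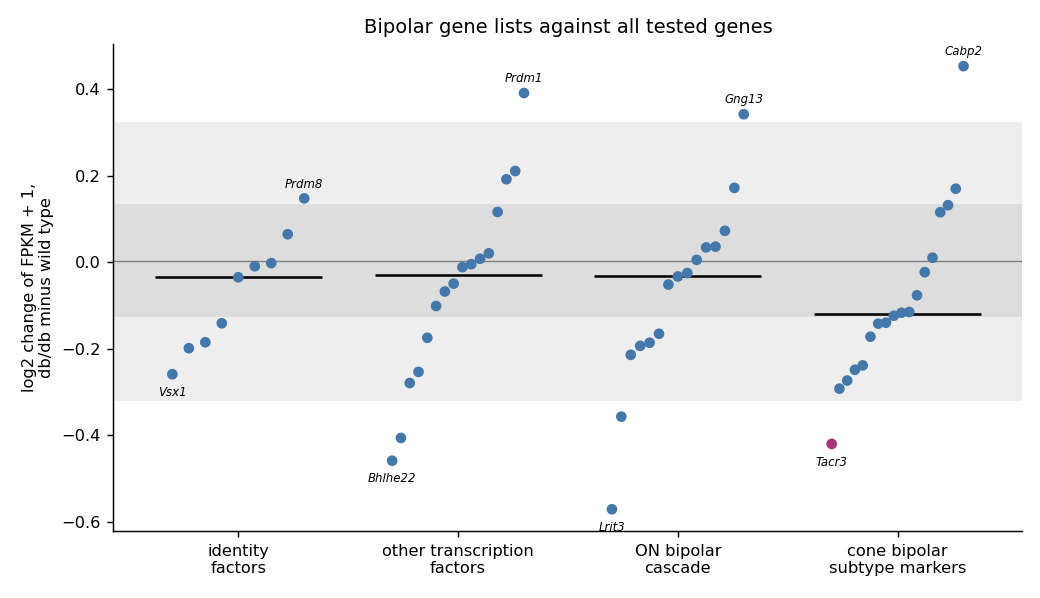
Log2 change (vertical axis, db/db minus wild type, all 9 libraries) of each measured gene in 4 lists, sorted within a list; black lines are list medians, and the grey bands hold the middle 50% and 90% of all 14588 tested genes. The 9 identity factors lie within the wider band, from -0.26 to 0.15, and Tacr3 (purple) is the single gene past an adjusted p of 0.05.

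Profiles over the 9 libraries were compared by the root mean square difference of log2(FPKM + 1) after each gene was centred on its own mean, among the 142 other genes of the lists. The nearest to Vsx1 was Grik1, the kainate receptor gene of OFF cone bipolar cells (0.11), and the nearest to Isl1 was the cone arrestin gene Arr3 (0.12). Sebox lay nearest to the neurofilament gene Nefl (0.065), Car8 to Neurod1 (0.057), Prdm8 to the glutamine synthetase gene Glul (0.051) and Bhlhe23 to the cone transducin gene Gnat2 (0.054). The nearest to Lhx4 was Megf11 (0.062), to Cabp5 Crx (0.069) and to Irx6 Gnb3 (0.075). Among the second nearest were Pou4f2 for both Vsx1 and Cabp5, P2ry12 for Isl1, Rlbp1 for Sebox, Syt2 for Car8, Nxph1 for Bhlhe23 and Thy1 for Irx6. Each factor's own root mean square deviation ran from 0.086 in Cabp5 to 0.19 in Isl1, and was 0.088 in Lhx4 and 0.11 in Irx6. A small distance between genes that vary little need not mean a shared profile. The distances are descriptions over libraries that all genes share.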

How the data were processed

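Total RNA from retina was made into SMARTER libraries (1.3 ug each), per the labels' protocols. The authors deposited 1 table of FPKM values for 35397 genes and 9 libraries. Per the submitters' processing notes the build was mm10. No aligner, counter, annotation or strand was given in the sources used here. Each column, named Control or DR and a number, was assigned to the title with the same number, wild type for Control and db/db for DR, which is inferred from the names. Symbols, exons and GC content came from GENCODE M21 (same assembly, 34499 identifiers found). Read depth was recovered from FPKM multiplied by exon length, which gave whole numbers to within 0.1 read for 99.0% to 99.1% of low values.

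Values were tested as log2(FPKM + 1) with limma 3.58.1 (lmFit, eBayes with trend) in R 4.3.3, on the 14588 genes that averaged 1 FPKM or more. The pseudocount understates fold changes of low genes. P-values were adjusted by Benjamini-Hochberg over all 14588 genes, with a threshold of 0.05. The exact two-sided permutation test was run for each of the 9 factors and of the 52 other bipolar genes, and was not adjusted over them. The 9 factors, the gene lists, the motifs and the tests were chosen with earlier results of these data known, and the lists of other bipolar genes are not independent evidence. All 9 factors passed the filter. Besides them, each bipolar list named its called genes or, where it had none, its 2 genes of smallest p, and each factor its 2 nearest profiles. Some of these names are not reported here. The code was tested on simulated data. Alternatives were another pseudocount (0.1), other filters, other variance models, 3 scalings, a block for the replicate number, array weights, leaving out libraries, correction in 20 bins of GC content, and limma-voom on recovered reads. Plots used Python 3.11.15 with matplotlib 3.10.9.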

Additional observations from a re-analysis of the deposited data

Results flagged for a closer look

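Isl1 stood at 14.3 FPKM in db/db 1, far from the 16.4 to 16.8 FPKM of the other 3 db/db libraries. The gap to the nearest of them was 0.855 of the range of the group, above Dixon's 95% critical value for 4 samples. This was the only such value in 28 groups screened (14 genes, each in wild type and db/db), and chance flags about 1 in 20 groups. The log2 change of Isl1 was -0.20 with all libraries and -0.15 without db/db 1, with adjusted p of 0.376 and 0.427 (limma).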

How the results depend on the processing

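Vsx1, Isl1, Bhlhe23 and Prdm8 kept their direction in all 23 alternatives, with log2 changes of -0.32 to -0.20, -0.28 to -0.091, -0.30 to -0.15 and 0.088 to 0.20. The 9 factors held 0 calls in each direction in every alternative but 1: after GC correction without db/db 1, 1 was lower (Bhlhe23). That setting called 343 of all 14490 tested genes lower. Of the other factors, 5 changed sign under some alternative. Lhx4 had 0.041 with array weights, 0.025 without db/db 1 and db/db 4 together, 0.047 with GC correction without db/db 1, and -0.044 to 0.048 when 1 library was left out. Cabp5 had 0.014 with GC correction and -0.080 to 0.012 with 1 library left out, and Sebox 0.0036 with limma-voom and -0.14 to 0.074 with 1 library left out. Car8 had 0.049 with GC correction without db/db 1. Irx6 had -0.034 without db/db 1 and db/db 4 together, -0.054 with GC correction and -0.077 with GC correction without db/db 1. The causes were not tested.

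Over all tested genes 34 were higher and 39 lower with the settings used above. The counts were 7 and 2 with no filter, 17 and 13 with a filter at 5 FPKM, 21 and 15 with scaling to equal sums (58.3% higher against 46.6%), 550 and 656 with array weights, 289 and 254 without db/db 1 and db/db 4 together, 5 and 1 with GC correction, and 378 and 343 with GC correction without db/db 1. Limma-voom gave 64 lower. With 1 library left out they ran from 3 to 688 higher and from 1 to 852 lower, the highest without db/db 1. Of other bipolar genes 0 were higher and 1 lower. With no filter, scaling to equal sums or GC correction 0 were lower, with array weights 1 was higher and 4 lower, without db/db 1 and db/db 4 together 1 was higher, and with GC correction without db/db 1, 1 was higher and 3 lower. With 1 library left out 0 to 1 were higher and 0 to 5 lower. The median log2 change of all genes stayed between -0.021 and 0.030.

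Whether libraries with the same replicate number form pairs was left undecided. The deviations of same-numbered libraries correlated at 0.043, 0.046, -0.18 and 0.13 for numbers 1, 3, 4 and 5. Those of differently numbered libraries correlated at -0.21 (wild type 5 and db/db 1) to 0.18 (wild type 5 and db/db 3). The same-numbered values lay within this range, so they gave no sign of pairing but cannot exclude it. With the replicate number as a block 2 genes were higher and 0 lower (1600 with an unadjusted p under 0.05), and 0 other bipolar genes were lower. Depth limits some factors: counting error alone, taken as Poisson, gives a coefficient of variation of 2.03% for Prdm8 and 3.36% for Bhlhe23 in wild type, against 2.45% and 5.09% between libraries. For Isl1 in db/db 3, 4 and 5 it gives 1.93%, above the 1.10% between those libraries.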
